A study of Mus musculus with 11 samples.

Results

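The Myc network genes described here are Myc, Mycn, Mycl, Max, Mlx, Mxd1, Mxd3, Mxd4, Mxi1 and Mnt, taken as every probe that the platform annotation gives to one of these symbols alone. Each of the 10 genes had 1 such probe with values, among 21789 single-symbol probes for 19938 genes. The set was chosen by the Myc ratios of these same arrays, which had been seen to separate the tissues, so the Myc values below are a description and carry no test. The other 9 genes came with Myc as its relatives and partners.

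Expression was measured on 11 Affymetrix mouse arrays in CD1 outbred embryos at E8.5, with 5 arrays from neural crest, 3 from neuroepithelium and 3 from paraxial mesoderm. No allele, transgene or treatment is named for any group. The tissue was taken from frozen cryostat sections by laser capture and its RNA was amplified before hybridisation. The study speaks of single cells, but the labels give neither the embryo nor the cell number behind an array. The p-values therefore cover array-to-array spread alone, which may be technical, and are too small if arrays of a tissue shared an embryo.

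Myc proteins are transcription factors that promote growth, ribosome production and cell division. They bind DNA as a pair with Max, at sites with the letters CACGTG known as E-boxes. The Mxd proteins, Mxi1 and Mnt compete for Max and repress the same sites through Sin3 and histone deacetylases, while Mlx pairs with some of these repressors and with the glucose-sensing factors Mlxip and Mlxipl. In the embryo, Myc is used in the neural plate border and neural crest, and Mycn in neural progenitors and other tissues.

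The site of the network is shown first, since the members are regulators that read these 6 letters and several carry them in their own promoter. RefSeq promoter windows (GRCm38.p6, 250 bases before to 50 after a gene's start) were matched for 9 of the 10 members, all but Myc. CACGTG, which reads the same on both strands, occurred in those of Max, Mlx, Mnt and Mxd4, 4 of 9 (44.4%). It occurred in 1483 of 15614 genes that had a window and a single-symbol probe (9.5%). Among 24 matched genes of a list of Myc-activated targets it occurred in 5 (20.8%), including the cell-cycle kinase Cdk4 and the cap-binding translation factor Eif4e. CACGTG occurred in 0 of 8 matched proliferation genes, 0 of 6 ubiquitous genes and 0 of 4 genes repressed by Myc and Miz1. In sets this small a share of 9.5% would often give 0, so these counts do not set the lists apart. Of the 6 genes most like Myc in pattern, 4 were matched and 1 held it. A match is a stretch of letters and not a measured binding site. The windows of 30 bases around the motif are given for the 4 members and for 2 targets. They run 5′ to 3′ on the gene's strand, with the E-box in capitals. Matches were counted only where the full 30 bases lay inside the promoter window, and each of the 4 members held 1. Cdk4 held 4 matches and Eif4e 2, and 1 of each, picked as an example, is printed:
Max, chr12:76962234-76962263, minus strand: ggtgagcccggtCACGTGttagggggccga
Mlx, chr11:101087238-101087267, plus strand: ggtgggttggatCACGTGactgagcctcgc
Mnt, chr11:74830789-74830818, plus strand: ccccacccaagcCACGTGtgcgcgcgcggt
Mxd4, chr5:34187912-34187941, minus strand: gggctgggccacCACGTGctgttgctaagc
Cdk4, chr10:127063405-127063434, plus strand: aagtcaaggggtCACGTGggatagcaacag
Eif4e, chr3:138527192-138527221, plus strand: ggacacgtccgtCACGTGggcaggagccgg

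Each deposited value is a linear ratio of an array to the probe's own reference, which matched the median of 9 arrays: the 8 given here whose median over probes was 1, and 1 more that is not analysed here. A ratio therefore gives no level of expression, and the ratios of different genes cannot be set against each other as levels. Because a captured sample is a mixture, fewer cells of a type and less RNA per cell cannot be told apart. Most probes barely moved: 71.9% stayed within 2-fold of their reference on every array. Such steady ratios do not tell a gene expressed evenly from a gene detected on no array. Single-array swings were common, with 21% of probes at least 4-fold above their reference on some array and 5.3% at least 4-fold below on some array. The housekeeping genes Hprt (0.291 to 45.3) and Tbp (0.851 to 97.1) were among those that swung, whereas Actb stayed between 0.873 and 1.06. The labels were met in part by their markers. Snai1 was 41.2 to 82.1 on the crest arrays, and Epcam 37.4 to 41.9 on the neuroepithelium arrays. The surface ectoderm genes Krt18 (72.4 to 91.6) and Krt8 (33.9 to 35.2) were high on the same neuroepithelium arrays, where Sox2 read 1.00 to 1.03. Epcam thus does not tell neuroepithelium from surface ectoderm there. Both keratins were also high on mesoderm array 2, and Krt8 on crest array 3 and mesoderm array 3. Other genes of these lists differed on the neuroepithelium arrays. The surface ectoderm genes Krt19 (0.959 to 1.06) and Tfap2c (0.971 to 1.11) stayed near their reference there, and Grhl3 was high on array 2 alone (60.0). Otx2, of the neuroepithelium list, read 0.959, 0.996 and 112 on neuroepithelium arrays 1 to 3, and 53.6 on mesoderm array 2. Moreover, 4 of 10 crest markers, 6 of 10 neuroepithelium markers and 9 of 10 paraxial mesoderm markers stayed within 2-fold throughout. The crest marker Tfap2b read 22.6 on neuroepithelium array 3 and 1.00 and 0.936 on crest arrays 1 and 4, and Twist1 read 5.92 on neuroepithelium array 2.

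Myc had the widest range of the 10 genes, 92.5-fold between its lowest and highest array, a range that 3.64% of all probes equalled or exceeded. Its ratios were 0.0687, 0.0836 and 0.0630 on neuroepithelium arrays 1 to 3. They were 5.83, 4.42, 1.99, 1.42 and 4.97 on neural crest arrays 1 to 5, and 1.57, 0.317 and 0.0636 on paraxial mesoderm arrays 1 to 3. All crest arrays thus lay above 1 and all neuroepithelium arrays more than 4-fold below it, with no overlap, while the mesoderm arrays ran from the crest level to the neuroepithelium level. Mesoderm array 3 could not be told from the neuroepithelium arrays, since it fell inside their range. These 4 low ratios lay between 0.0630 and 0.0836, and whether they sat at a detection floor was not tested.

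**Figure D1:**
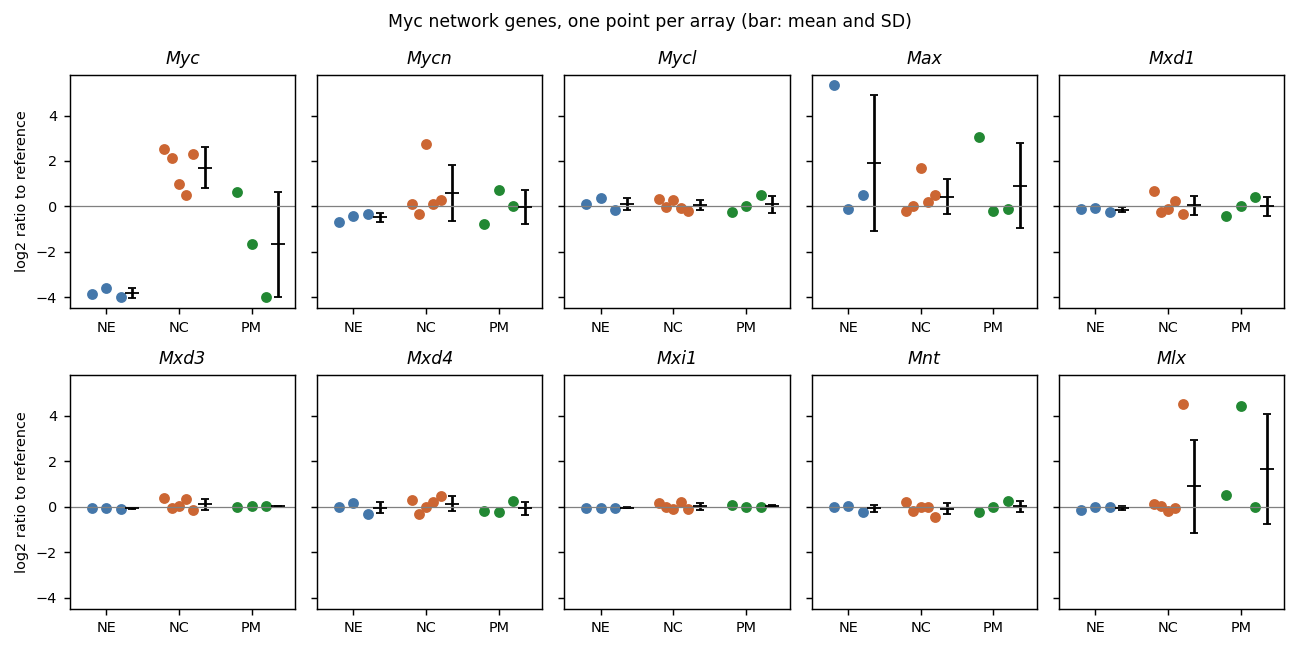
Log2 ratio to the probe's reference (vertical axis) for the 10 genes in neuroepithelium (NE, 3 arrays), neural crest (NC, 5) and paraxial mesoderm (PM, 3), a point per array and a bar for the mean and SD of each tissue. Myc separates NE from NC, Mycn, Max and Mlx depart on single arrays, and the other 6 genes stay within 2-fold of their reference.

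On the log2 scale the mean Myc ratio was 1.70 ± 0.90 (SD, n = 5) in neural crest, -1.66 ± 2.31 (n = 3) in paraxial mesoderm and -3.81 ± 0.21 (n = 3) in neuroepithelium. The order of the tissue means was neural crest, paraxial mesoderm, neuroepithelium, and the mesoderm spread reached both of its neighbours. Crest exceeded neuroepithelium by 5.51 (SE 0.92), a 45.6-fold difference, and mesoderm by 3.36 (SE 0.92), or 10.3-fold. Mesoderm exceeded neuroepithelium by 2.15 (SE 1.03). These differences describe the values that led to the choice of the genes and support nothing further. Among all single-symbol probes, 1.41% were higher in crest than in neuroepithelium with no overlap and 1.54% were lower.

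The mesoderm value of Myc depended on which array stood for it. Without mesoderm array 1 the crest difference was 4.52 and the difference from neuroepithelium 0.996; without array 3 they were 2.20 and 3.31. Leaving out any single crest or neuroepithelium array kept the difference between those tissues between 5.30 and 5.81. Within neural crest, arrays 1, 2 and 5 were at least 4-fold above the reference and arrays 3 and 4 were not. No array sat at exactly 1 for Myc, since 4 of the 8 given reference arrays lay below 1 and 4 above, so its reference was the array that is not given. Each of the other 9 members had 1 given reference array at 1.

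A ratio at least 4-fold below the reference on all 3 neuroepithelium arrays was held by 14 probes (0.0643%). The same together with a ratio above 1 on all 5 crest arrays, a shape set from Myc itself, was found for 2 probes, 0.00918% of those tested. The second was Mtap, which recycles methylthioadenosine in methionine salvage. Its ratios were 0.113, 0.108 and 0.137 in neuroepithelium and 8.57, 3.95, 2.51, 4.04 and 1.23 in neural crest. In mesoderm Mtap read 1, 5.67 and 0.170, so both genes were low on mesoderm array 3, but array 2 was high for Mtap and low for Myc.

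Of the Myc paralogs, Mycn had the same order of tissue means as Myc, over a smaller range, and Mycl was steady. Mycn, the family member best known from neural progenitors and neuroblastoma, read 0.622, 0.751 and 0.795 in neuroepithelium. In neural crest it read 1.07, 0.797, 6.65, 1.09 and 1.22, and in paraxial mesoderm 0.586, 1.64 and 1. It was high on crest array 3 alone, one of the arrays where Myc was modest. Its lowest crest array barely cleared its highest neuroepithelium array. The log2 difference between crest and neuroepithelium was 1.06 (SE 0.66) and 0.524 without crest array 3, and Mycn did not pass (limma adjusted p = 1.00). Mycl, the third paralog, stayed between 0.844 and 1.43 on all 11 arrays, and its tissue means lay within 0.05 of each other on the log2 scale, with differences of -0.046, -0.029 and -0.017 (SE 0.20 to 0.22).

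Max, the partner that Myc, Mxd and Mnt proteins share, was at least 4-fold high on neuroepithelium array 1 and mesoderm array 1. Its ratio was 40.4 on neuroepithelium array 1 against 0.936 and 1.43 on arrays 2 and 3. In mesoderm it was 8.40 on array 1 against 0.861 and 0.915. The crest arrays read 0.857, 1, 3.25, 1.13 and 1.44. The tissues overlapped throughout, and the array with the highest Max had a Myc ratio of 0.0687. Its crest minus neuroepithelium difference of -1.48 (SE 1.28) became 0.228 without neuroepithelium array 1, and its crest minus mesoderm difference of -0.47 (SE 1.28) became 0.609 without mesoderm array 1. The mesoderm minus neuroepithelium difference of -1.01 (SE 1.43) likewise became 0.700 without neuroepithelium array 1.

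Mlx, the Max-like partner of Mlxip and Mlxipl, was high on 2 arrays of different tissues. Crest array 5 read 22.9, and crest arrays 1 to 4 lay between 0.891 and 1.09. In mesoderm it read 21.9 on array 2, 1.45 on array 1 and 1 on array 3, and in neuroepithelium 0.900, 1.00 and 0.993. The difference between crest and mesoderm was -0.77 (SE 1.31), 0.627 without mesoderm array 2 and -2.71 (SE 1.15) with arrays weighted by their spread (limma adjusted p = 0.630). The difference between crest and neuroepithelium was 0.95 (SE 1.31) and fell to 0.0409 without crest array 5. Mesoderm minus neuroepithelium was 1.71 (SE 1.46), 0.319 without mesoderm array 2 and 3.30 with array weights (limma adjusted p = 0.666). At least 4-fold high ratios were held by 3.52% of all probes on neuroepithelium array 1, 7.33% on crest array 5, 5.13% on crest array 3, 7.88% on mesoderm array 1 and 3.9% on mesoderm array 2, which are the arrays where Max, Mlx or Mycn were high.

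**Figure D2:**
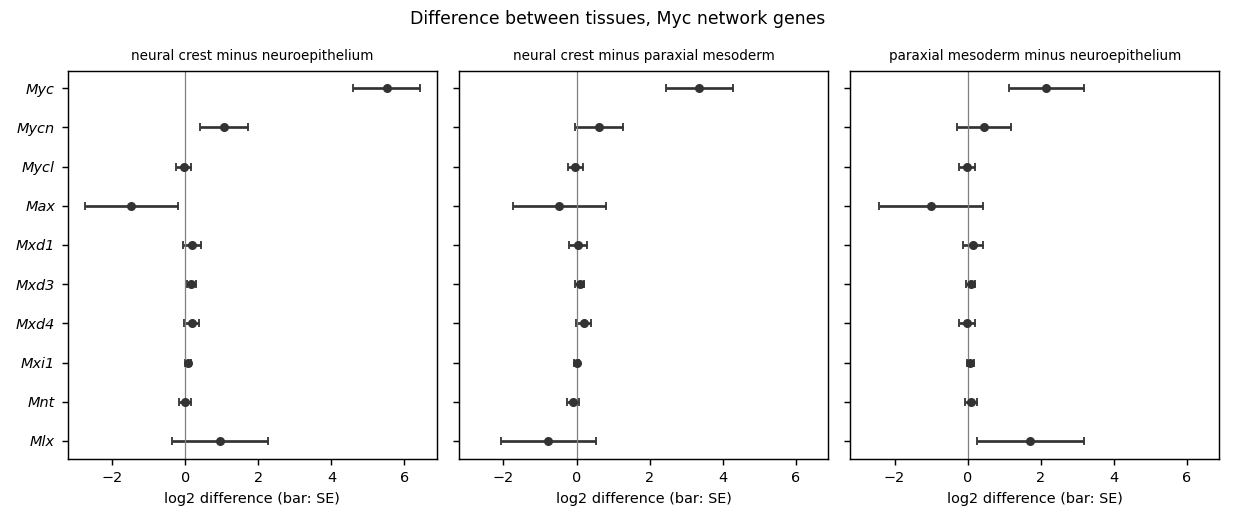
Log2 difference between tissues (horizontal axis, bar: SE from the limma fit over 11 arrays) for the 10 genes in the 3 comparisons. Myc lies farthest from 0 in each panel, Max and Mlx have the widest bars, Mycn reaches 1.06 in crest minus neuroepithelium, and the 18 differences of the other 6 genes lie between -0.10 and 0.20.

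The repressors Mxd1, Mxd3, Mxd4, Mxi1 and Mnt and the paralog Mycl were steady, which does not tell even expression from no detection. All 66 of their values lay between 0.736 (Mnt, crest array 5) and 1.59 (Mxd1, crest array 1), and their 18 log2 differences between tissues lay between -0.10 and 0.20 with SEs of 0.080 to 0.28. Mxd3, a repressor of proliferating cells, read 0.947 to 0.971 in neuroepithelium, 0.897 to 1.30 in crest and 1 to 1.02 in mesoderm. Mxi1 read 0.959 to 0.977, 0.924 to 1.17 and 0.993 to 1.07 in the same order. Mxd3 and Mxi1 were higher in mesoderm than in neuroepithelium with no overlap, by 0.078 (SE 0.13) and 0.071 (SE 0.089), where 2.88% of all probes did the same. No member was lower with no overlap in that comparison (3.97% of all probes), and none separated crest from mesoderm in either direction (1.4% of all probes higher, 1.24% lower). Mnt, a repressor present in most cells, read 0.841 to 1.03 in neuroepithelium and 0.860 to 1.20 in mesoderm.

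Of the 9 members other than Myc, 0 passed in any of the 3 comparisons (limma, Benjamini-Hochberg over 21789 probes, adjusted p = 1.00 throughout), and 0 had an unadjusted p under 0.05. The shares of all probes that passed were 0.0275% for crest against neuroepithelium, 0.00918% for crest against mesoderm and 0.0138% for mesoderm against neuroepithelium. In the same order, 6, 5 and 6 of the 9 differences were positive, with medians of 0.16, 0.0013 and 0.078. Over all 21789 probes, 10831, 11018 and 10616 differences were positive, with medians of -0.00052, 0.0011 and -0.0025. The moderated F test over the 3 tissues gave these 9 genes an adjusted p of 0.999, with 6 probes past the threshold in all. With 3 arrays in 2 of the tissues, a missed threshold does not show that a gene was equal between them.

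The 6 steady genes also shifted in their mean by small amounts from array to array, within each tissue. They did not all shift alike. Above 1 lay 6 of them on crest array 1 and 5 on mesoderm array 3, but 4 on crest array 4 and 3 on neuroepithelium array 2. Their mean log2 ratio was 0.340 on crest array 1, 0.247 on mesoderm array 3, 0.154 on crest array 4 and 0.073 on neuroepithelium array 2, against -0.181 on neuroepithelium array 3 and -0.162 on mesoderm array 1. Of the 15663 probes that stayed within 2-fold everywhere, the share at least 10% above the reference was 23.8%, 19.2%, 16.3% and 16.1% on the first 4 of those arrays and 3.45% and 3.63% on the last 2. Over the 11 arrays the mean of the 6 genes and this share had Pearson r = 0.948 and Spearman rho = 0.964, a description of arrays that share a reference and an array-wide scale. The cause of this array-wide difference was not tested.

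**Figure D3:**
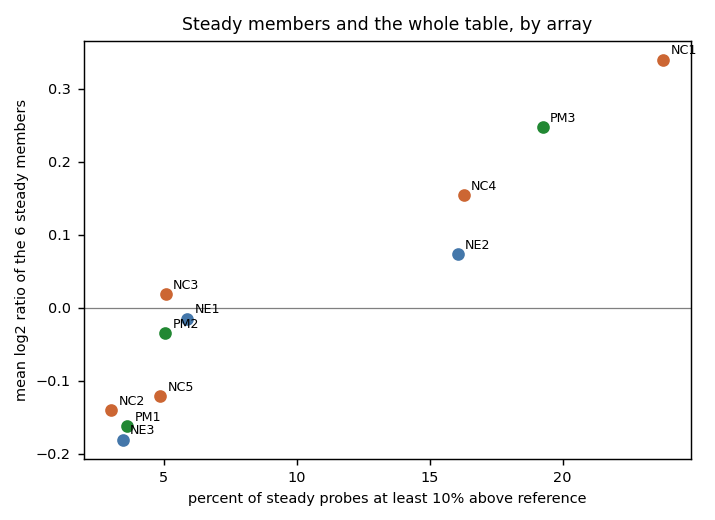
Mean log2 ratio of Mycl, Mxd1, Mxd3, Mxd4, Mxi1 and Mnt (vertical axis) against the percent of steady probes at least 10% above their reference (horizontal axis), a point per array, coloured by tissue (NE neuroepithelium, NC neural crest, PM paraxial mesoderm). NC1, PM3, NC4 and NE2 stand apart at the upper right, and each tissue has arrays at both ends.

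Myc was set beside its partners array by array. Over 11 arrays, Pearson r of the log2 ratios was 0.296 between Myc and Mycn, -0.194 between Myc and Max and 0.221 between Myc and Mlx, with Spearman rho of 0.391, -0.0909 and 0.436. Crest array 5 was the array where Myc (4.97) and Mlx (22.9) were high together, and mesoderm array 2 had high Mlx with Myc at 0.317.

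Probes were then ranked by the likeness of their pattern to Myc, as Pearson r of log2 ratios over the 11 arrays among the 5607 probes (25.7%) that ranged over at least 4-fold. The closest was Ppp2r2a, a regulatory subunit of protein phosphatase 2A (r = 0.961, Spearman rho = 0.936). Its ratios were 17.3, 24.3, 16.0, 11.7 and 15.5 in crest, 0.801, 1.39 and 0.372 in neuroepithelium, and 9.90, 1 and 0.418 in mesoderm. Every crest array of Ppp2r2a was thus above every other array, with mesoderm array 1 next, whereas for Myc mesoderm array 1 fell among the crest arrays. Pgp, a phosphoglycolate phosphatase, followed (r = 0.916), with 2.63 to 4.88 in crest and 0.0656, 0.0686 and 0.479 in neuroepithelium.

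The next most similar were the threonine tRNA ligase Tars (r = 0.888), the mitochondrial ribosome gene Mrps26 (0.861), the cell motility gene Memo1 (0.846) and the mitotic entry kinase Wee1 (0.843). Memo1 and Wee1 departed from Myc on crest array 4, where they read 0.448 and 0.344 and Myc 1.42. For Tars mesoderm array 1 (20.8) exceeded 4 of the 5 crest arrays. These likenesses were found by a search over all eligible probes on arrays with a common reference.

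**Figure D4:**
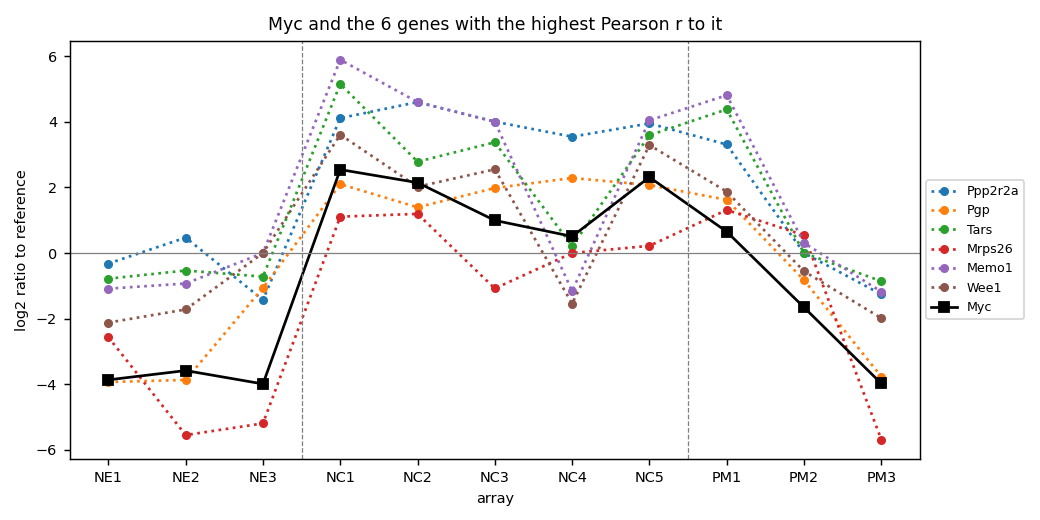
Log2 ratio to the reference (vertical axis) on each of the 11 arrays (NE neuroepithelium, NC neural crest, PM paraxial mesoderm) for Myc (black squares) and the 6 genes with the highest Pearson r to it (coloured points), with lines only to guide the eye, since arrays of a tissue have no order. All 7 genes are lower on PM3 than on any of NC1, NC2, NC3 and NC5, and Memo1 and Wee1 drop on NC4.

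The same ranking gave other neighbours for the members that moved on single arrays. For Mycn they were Kctd6 (r = 0.938), Lhpp (0.935) and the Fanconi complex gene Faap100 (0.931), which were high on crest array 3 (6.93, 6.18 and 22.5). For Max they were Rbck1 (0.979), Zfp653 (0.948) and the translocon channel gene Sec61a1 (0.946), high on neuroepithelium array 1 (44.9, 19.3 and 48.3) and mesoderm array 1 (6.77, 5.43 and 14.0). For Mlx they were the cochaperone Ttc4 (0.995), the syntaxin Stx18 (0.994) and N6amt1 (0.992), high on crest array 5 and mesoderm array 2. Each of these neighbours was at least 4-fold high on only 1 or 2 of the 11 arrays, and the Spearman rho was 0.427 to 0.7.

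The remaining genes of the network and its regulators were read from lists drawn up by function. Mga, Mlxip and Mlxipl, which complete the Max and Mlx network, stayed between 0.938 and 1.23 on every array. Of 30 listed genes that Myc is known to activate, all were measured, by 36 probes, and 0 passed in any comparison (limma). At unadjusted p under 0.05 there was 1 probe between crest and neuroepithelium and 0 in the other comparisons, beside 604, 624 and 525 of all 21789 probes in the order crest against neuroepithelium, crest against mesoderm and mesoderm against neuroepithelium. The median log2 difference of the list was 0.11 between crest and neuroepithelium, -0.05 between crest and mesoderm and 0.08 between mesoderm and neuroepithelium. The medians over all probes were -0.00052, 0.0011 and -0.0025.

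Of the target probes, 14 of 36 (38.9%) stayed within 2-fold throughout, beside 71.9% of all probes. At least 4-fold low somewhere were 10 of 36 (27.8%, all probes 5.3%), and at least 4-fold high somewhere also 10 of 36 (27.8%, all probes 21%). Other lists shared this. Within 2-fold stayed 18.2% of proliferation, 27.3% of coactivator, 28.6% of turnover and 40% of corepressor probes, but 84.6% of ubiquitous ones. In the same order, 36.4%, 36.4%, 14.3%, 60% and 0% were at least 4-fold low somewhere. Among the targets, the ribosome factor nucleolin (Ncl) read 0.0150 on neuroepithelium array 2 and 0.0557 on crest array 4, and 0.623 to 1.30 on the other 9 arrays. Spermidine synthase (Srm) read 0.0188 on neuroepithelium array 2 and 0.670 to 1.23 elsewhere. The pseudouridine synthase Dkc1 read 0.0524, 0.0333 and 1 in neuroepithelium, 0.0280 to 1.91 in crest and 3.13, 1.69 and 0.192 in mesoderm. Shmt2, a serine hydroxymethyltransferase of mitochondria, was low on arrays of all 3 tissues. Cdk4 (0.757 to 1.04), the ribosome assembly gene Npm1 (0.680 to 1.19) and Tert (0.968 to 1.17) were steady.

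On the neuroepithelium arrays, all with Myc near 0.07, the count of target probes at least 4-fold low was 2, 6 and 2, and 0, 0 and 3 were at least 4-fold high. Crest array 4 had 5 low and 1 high with Myc at 1.42, and crest array 1 had 2 low and 1 high with Myc at its highest. Mesoderm array 1 had 9 of 36 probes high (25%) with Myc at 1.57, and mesoderm array 3 had 6 low with Myc at 0.0636. The share of all probes that departed also differed between arrays. Of all probes, 0.808%, 2.19% and 0.532% were at least 4-fold low on neuroepithelium arrays 1 to 3, 2.77%, 0.395%, 0.757%, 1.67% and 0.34% on crest arrays 1 to 5, and 0.601%, 1.16% and 2.5% on mesoderm arrays 1 to 3. At least 4-fold high were 3.52%, 2.85% and 5.51%, then 1.97%, 5.6%, 5.13%, 2% and 7.33%, then 7.88%, 3.9% and 1.83% in the same order. The arrays with 5 or 6 low targets were thus 3 of the 4 richest in low probes at large, and mesoderm array 1 was the richest in high ones. The part of this in the target values was not tested. Over the 11 arrays the mean log2 ratio of the list and Myc had Pearson r = 0.506 and Spearman rho = 0.4, over points that share a reference. This value was not particular to the targets. Pearson r with Myc was 0.638 for the Mxd and Mnt corepressor list, 0.428 for coactivators, 0.365 for proliferation and 0.132 for ubiquitous genes. For the neural crest and neuroepithelium marker lists it was 0.683 and -0.731.

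**Figure D5:**
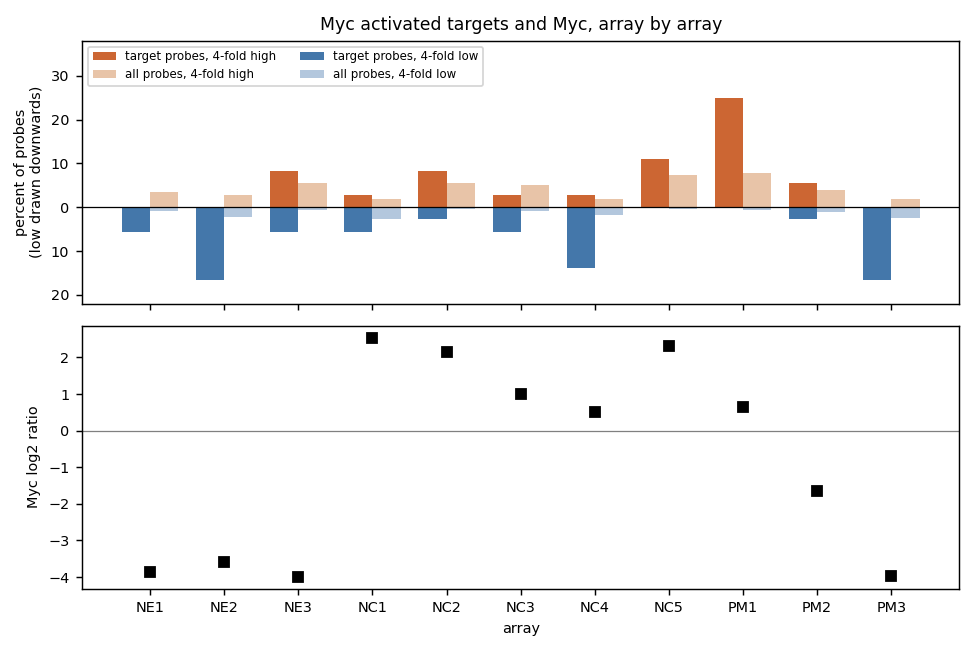
Above, the percent of 36 probes of Myc-activated targets (dark bars) and of all 21789 probes (light bars) at least 4-fold above (upward) or below (downward) the reference on each array; below, the Myc log2 ratio on the same arrays (NE neuroepithelium, NC neural crest, PM paraxial mesoderm). Low targets are most frequent on NE2, PM3 and NC4, and high targets on PM1.

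The 6 widest-ranging coactivator genes were at least 4-fold off on 1 to 6 arrays each, and the corepressors Hdac1 and Hdac2 on 2 each. Of 11 probes for Myc coactivators, 3 stayed within 2-fold and 0 passed (limma; 1 unadjusted, between crest and mesoderm). The helicase Ruvbl1 was low on mesoderm array 2 alone (0.0130; 0.917 to 1.27 elsewhere). Its partner Ruvbl2 was low on neuroepithelium array 2 (0.0539) and crest arrays 1 (0.0879) and 4 (0.138). One probe of the scaffold Trrap was at least 4-fold off on 6 arrays and ranged from 0.212 to 23.3, whereas its second stayed between 0.833 and 1.07. Among the Mxd and Mnt corepressors, 5 probes with 0 passing (limma; 0 unadjusted), Sin3a and Sin3b stayed within 2-fold. Hdac1 was low on neuroepithelium array 2 (0.0290) and mesoderm array 3 (0.0282), and its second probe also fell to 0.0326 at its lowest. Hdac2 was low on neuroepithelium array 1 (0.123) and mesoderm array 2 (0.101). Low Hdac1 and low Hdac2 were thus found on different arrays.

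Genes that control Myc protein turnover likewise showed 0 calls among 14 probes (limma; 0 unadjusted). Fbxw7, the ubiquitin ligase subunit that marks Myc for degradation, read 6.41, 0.0836 and 1 in neuroepithelium on its wider probe. The crest arrays read 0.0793, 2.41, 0.0650, 0.0734 and 0.0991, and the mesoderm arrays 1.38, 0.0841 and 0.0776. It was low on 4 of 5 crest arrays and on 1 or more arrays of each other tissue, but its second probe stayed between 0.929 and 2.24. Aurka, a mitotic kinase that stabilises Mycn, read 0.170, 0.0440 and 0.479 in neuroepithelium, 0.0514 to 1.62 in crest and 1.56, 0.0477 and 1.36 in mesoderm. Skp2, a ubiquitin ligase subunit, was high on crest array 1 alone (9.38), and Cip2a, an inhibitor of protein phosphatase 2A that protects Myc, was highest on mesoderm array 2 (35.7).

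The neighbours of the Myc gene were read next. The noncoding gene Pvt1, which lies beside Myc, stayed between 0.984 and 1.15 except for 3.22 on crest array 3, and its second probe between 0.895 and 1.01. Cyrib, a regulator of the actin cytoskeleton, had the widest range of the neighbours, at 0.0528 on neuroepithelium array 2, 0.0624 on crest array 1, 0.0547 on mesoderm array 2 and 0.717 to 3.12 elsewhere. Trib1 (0.913 to 1.28) and Asap1 (0.965 to 1.07) were steady. Lratd2 was high on neuroepithelium array 1 (16.1) by 1 of its 2 probes. Of the 7 probes, 0 passed (limma; 0 unadjusted).

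Markers of other cells were high on some arrays. Over the 11 arrays, Pearson r between Myc and the mean log2 ratio of the list was -0.719 for surface ectoderm and 0.180 for primitive erythrocytes. The surface ectoderm list of 7 genes had 2, 4 and 2 members at least 4-fold high on the neuroepithelium arrays, where Myc was low, and Krt18 read 91.6, 72.4 and 78.6 there. It had 0, 0, 1, 0 and 1 on the crest arrays and 0, 3 and 1 on the mesoderm arrays. Its summed log2 ratio was 11.7 to 21.5 in neuroepithelium, -1.15 to 6.98 in crest and -2.12 to 17.4 in mesoderm. Of 8 measured primitive erythrocyte markers, 7 were high on mesoderm array 1, the mesoderm array with the highest Myc, with a summed log2 ratio of 42.5 there and between -0.903 and 0.887 on all other arrays. The endothelial list of 7 genes stayed within 2-fold. The proliferation list, 11 probes with 0 passing (limma, 0 unadjusted), summed over probes to 3.80, -9.49 and 8.5 in neuroepithelium. It summed to -6.19 to 12.4 in crest and 7.31, -1.76 and -23.6 in mesoderm. On mesoderm array 3, 4 of the 11 probes were at least 4-fold low. Pcna counts by 2 probes: 1 read 0.01 on that array, and the other also fell to 0.01 at its lowest. No marker stood at 0, the lowest ratio in the table being 0.01. The part of these cells in the Myc values was not tested.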

How the data were processed

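The series matrix table held 11 columns, 1 per array, all matched to a sample by its accession, with 0 unmapped. RMA and the build mm9 are named, per the submitters' processing notes, without a version. The values the authors deposited are linear ratios, and the sources used here do not give how they were scaled. Of 35557 listed probes, 6701 were blank and 28856 had values, of which 21789 had 1 symbol, 1621 several and 5446 none. Symbols were checked by Entrez identifier against RefSeq (GRCm38.p6), matching 21698 and changing 0. A value counted as 1 within 1e-05.

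Log2 ratios, without a pseudocount, were fitted as 3 tissue means over 11 arrays with lmFit and eBayes in limma 3.58.1 under R 4.3.3, without an intensity trend. P-values were two-sided and adjusted by Benjamini-Hochberg over 21789 probes at a threshold of 0.05. The fit was tested on simulated data with normal noise and changes placed only in probes of small spread. That test does not cover single-array swings like those seen here. The number of arrays limits the precision. Same-numbered arrays deviated together in 0 of 9 pairs (r over 0.1). This cannot show whether they shared an embryo or a batch, and the reported fit did not pair arrays. The alternatives were an intensity trend, a robust prior, all probes, 1 probe or the mean per gene, quantile normalization, a pseudocount of 0.1, a filter on steady probes, array weights, 2 tissues alone, a replicate block and leaving out each array.

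Named genes were the 10 members, the 6 widest-ranging genes of each list, steady list genes and the genes most like each member by Pearson r. Members and lists were chosen with earlier results of these data known. Mtap was named after its values were seen. Promoter sequences are from RefSeq.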

Additional observations from a re-analysis of the deposited data

Results flagged for a closer look

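Outermost arrays were tested in neural crest alone, the only tissue with more than 3 arrays. Single-array departures in the other tissues were not tested this way. The gap between the outermost array and the next was set against the whole range of the log2 ratios. Dixon's 95% limit for this share is 0.71 with 5 arrays. The share exceeded the limit for 2 of the 10 genes. Mycn stood at 6.65 on crest array 3 against 0.797 to 1.22 on the other 4. Mlx stood at 22.9 on crest array 5 against 0.891 to 1.09. Chance flags about 5% of groups, and 15.0% of all single-symbol probes passed the same limit in these arrays.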

How the results depend on the processing

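The 9 members other than Myc had 0 calls under all 22 alternatives per comparison, with a lowest adjusted p of 0.630 (limma); the filter on steady probes gave no value for 6 of them. The count of all probes called, 6 between crest and neuroepithelium, was 2 with the intensity trend, 10 with only those tissues fitted and 5 to 20 with 1 array left out (15, 20 and 16 without neuroepithelium arrays 1 to 3, 11 without crest array 1). The 2 between crest and mesoderm became 0 with the trend and 1 to 45 with 1 array left out (4, 12 and 45 without mesoderm arrays 1 to 3, 5 without crest array 1, 1 without crest array 3 or neuroepithelium array 2 or 3). The 3 between mesoderm and neuroepithelium became 3 to 40 (11, 13 and 12 without neuroepithelium arrays 1 to 3, 5 without crest array 2, 7, 14 and 40 without mesoderm arrays 1 to 3). The pseudocount lowered the Myc difference between crest and neuroepithelium from 5.51 to 4.29. Array weights moved Mlx to -2.71 in crest minus mesoderm and 3.30 in mesoderm minus neuroepithelium, each with 1 member at unadjusted p under 0.05, and the replicate block moved it to -1.66 in the first and to 0.0519 in crest minus neuroepithelium. Array weights also moved Max to -2.53 and Mycn to 0.918 in mesoderm minus neuroepithelium.

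Differences changed sign without any call, among them Max and Mlx at -1.48 to -0.47 in the reported fit. In crest minus neuroepithelium, the replicate block gave 0.0866 for Mycl and 0.0854 for Mnt, and omitting 1 array gave -2.49 to 0.228 for Max, -0.171 to 0.0785 for Mycl and -0.102 to 0.0777 for Mnt. In crest minus mesoderm, quantile normalization gave -0.0141 for Mxi1, array weights gave 0.0363 for Mycl, 0.320 for Max, -0.0577 for Mxd1 and -0.0179 for Mxi1, and the replicate block gave 0.104 for Mycl and -0.0212 for Mxi1. Omitting 1 array gave -1.03 to 0.609 for Max, -1.67 to 0.627 for Mlx, -0.218 to 0.0220 for Mnt, -0.162 to 0.25 for Mxd1, -0.0471 to 0.0371 for Mxi1 and -0.197 to 0.185 for Mycl. In mesoderm minus neuroepithelium, quantile normalization gave 0.211 for Mycl, and omitting 1 array gave -2.09 to 0.700 for Max, -0.0342 to 0.206 for Mnt, -0.0629 to 0.349 for Mxd1, -0.182 to 0.0933 for Mxd4 and -0.231 to 0.151 for Mycl. Beyond the arrays left out, the causes were not tested. With the replicate block 6, 3 and 2 probes passed in the 3 comparisons. Same-numbered arrays had r of -0.145 to 0.0525, and the labels do not say what a number stands for.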

Other observations

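Growth-arrest genes that Myc and its partner Miz1 are known to repress were measured for 5 of 6 listed genes, with 0 calls and 0 at unadjusted p under 0.05 (limma). Gadd45a, a stress and growth-arrest gene, read 49.6, 0.845 and 0.851 in neuroepithelium, 1, 6.23, 51.2, 2.85 and 71.5 in neural crest, and 33.0, 0.742 and 0.899 in paraxial mesoderm. It was high on arrays of all 3 tissues, among them arrays with low Myc (neuroepithelium 1) and with high Myc (crest 5). Cdkn1c, an imprinted inhibitor of cyclin-dependent kinases, was high on mesoderm array 3 (42.4), where Myc was 0.0636, and lay between 0.746 and 2.6 elsewhere. Cdkn2b (0.803 to 1.40), Zbtb17, which encodes Miz1 (0.755 to 1.12), and Ndrg1 (0.927 to 1.16) were steady.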
